A study of Mus musculus with 8 samples.

Results

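The fibroblast growth factor (FGF) genes described here are 3 secreted ligands (Fgf1, Fgf2 and Fgf9), 4 FGF homologous factors (Fgf11, Fgf12, Fgf13 and Fgf14) and 3 receptors (Fgfr1, Fgfr2 and Fgfr3). These 10 genes, of 12393 with a probe set of their own, were chosen by name from the platform annotation with earlier results of the FTY720 against vehicle comparison known. Every probe set annotated to exactly 1 of them was taken, which gave 17. Their differences between the groups are therefore given as a description, without a test.

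The mice were male SCID animals aged 12 weeks, a strain without mature B and T lymphocytes, so both groups lack the lymphocytes that are the best known target of the drug. The 4 FTY720 mice received the drug by mouth at 1 mg/kg in saline on 3 days, and the 4 vehicle mice received saline by mouth on the same schedule. FTY720 (fingolimod) is a sphingosine analogue that acts, once phosphorylated, on sphingosine-1-phosphate receptors. All 8 mice underwent contextual fear conditioning, and each hippocampus was taken 1 hour after the memory test, with 17 hours between final dosing and dissection. RNA of a single mouse went on each Affymetrix 3' array, with no pooling, and mice are named by group and replicate number (FTY720 1, 4, 5 and 6, and vehicle 13 to 16).

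Secreted FGFs bind receptor tyrosine kinases on the cell surface together with heparan sulfate, and the receptors signal through the adaptor Frs2 to Ras and the MAP kinases, and to phosphoinositide 3-kinase and phospholipase C. The homologous factors share the FGF fold but lack a signal peptide, stay inside neurons and bind voltage-gated sodium channels. In the adult brain Fgfr1 is typical of neurons and neural progenitors, Fgfr2 of oligodendrocytes and astrocytes, and Fgfr3 of astrocytes.

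All values below are log2 probe set values as deposited, and differences are FTY720 minus vehicle with the standard error (SE) of the limma fit. A probe set is a group of short probes for 1 transcript region, so levels of different probe sets are not comparable with each other. Over the 22626 probe sets tested, the median level was 6.70 and the median SE 0.072. Array medians lay between 6.68 and 6.72. Vehicle 15 stood alone on the first principal component (32.3% of the variance) and vehicle 16 on the second (20.2%). Vehicle 16 also had the steepest loss of 5' signal in the Gapdh control probe sets, at -1.46 (5' minus 3'), where the other 7 mice lay between -1.18 and -0.80. Group means of that control were -0.95 in FTY720 mice and -1.20 in vehicle mice. Of markers of the labelled tissue, the neuronal gene Snap25 averaged 13.21 ± 0.07 in FTY720 and 13.27 ± 0.08 in vehicle mice (SD, n = 4 each). Calb1, a marker of granule cells, averaged 11.02 ± 0.20 in FTY720 and 11.09 ± 0.09 in vehicle mice. The probe set of Prox1, another granule cell marker, had a mean of 3.29 over the 8 mice. Of 5 granule cell markers measured, 2 were higher and 3 lower in FTY720 mice. Dsp, Tdo2 and Lct varied more between mice than Calb1 in both groups, and Prox1 varied less. The mean of the 5, relative to the 8 mice, ranged from -0.41 to 0.29 over the FTY720 mice and from -0.32 to 0.375 over the vehicle mice.

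In each FTY720 mouse Fgf11 was above its value in all vehicle mice, with a difference of group means of 0.35 (SE 0.08), or 1.27-fold. Fgfr2 was lower in every FTY720 mouse, by -0.28 (SE 0.06), or 0.823-fold, and Fgfr3 was higher in every FTY720 mouse by 0.14 (SE 0.06), or 1.10-fold. These 3 values come from the brightest probe set of each gene. In the other 14 of the 17 probe sets the groups overlapped. Groups did not overlap in 4.38% of all 22626 probe sets, 2.65% higher and 1.74% lower in FTY720 mice. Because the genes were named with this comparison in view, nothing is read from the 3 of 17. Over the whole array limma called 0 of 22626 probe sets at an adjusted p under 0.05 (0%), with a lowest adjusted p of 0.483, and 1529 (6.76%) had an unadjusted p under 0.05. The median difference was 0.03 over the 17 probe sets and 0.01 over all.

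**Figure D1:**
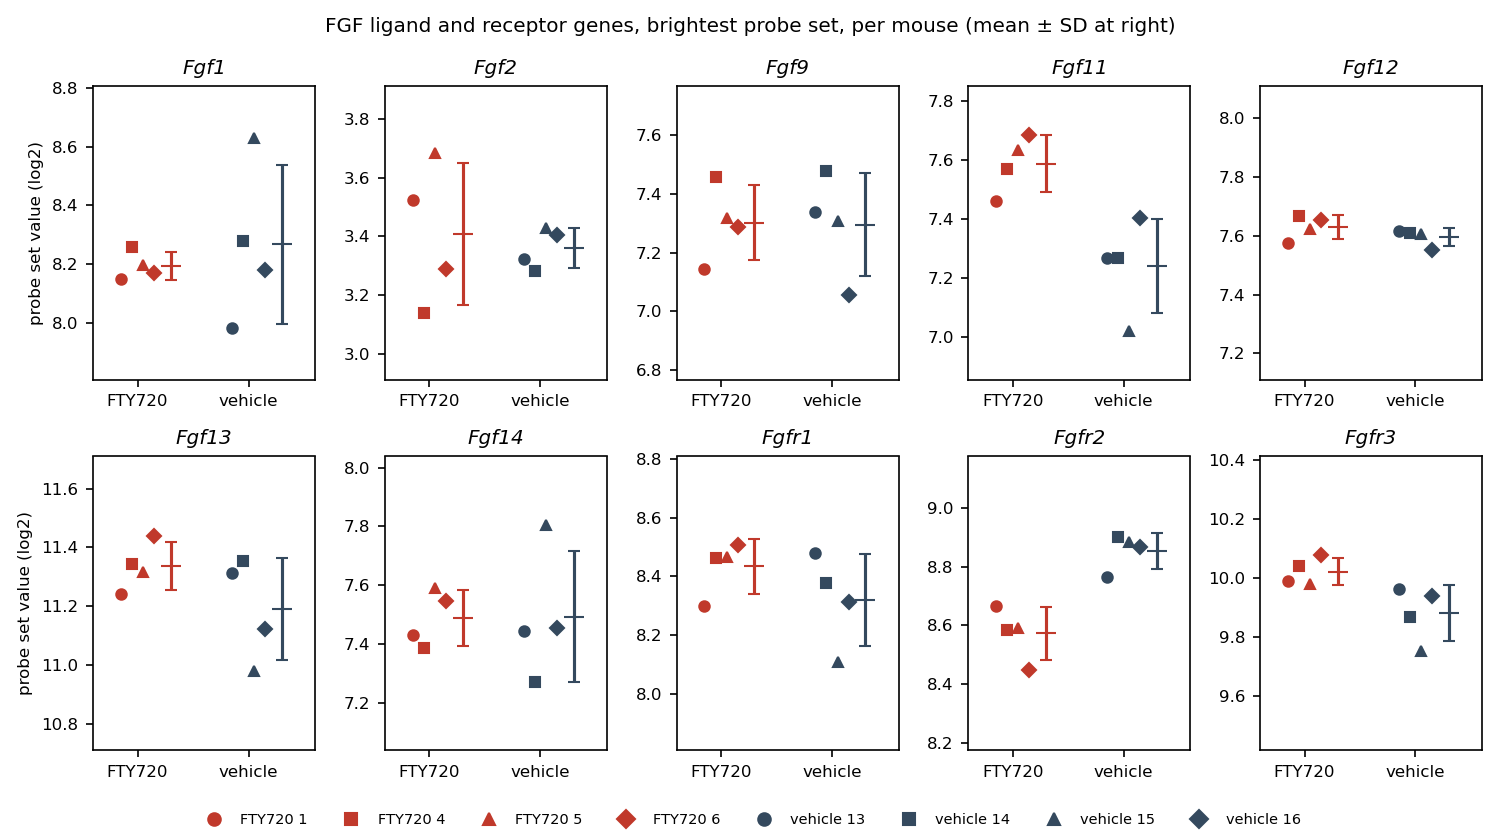
Log2 values of the brightest probe set of each gene in every mouse (points, FTY720 red and left, vehicle dark and right), with mean and SD (n = 4) beside them. Every panel spans 1 log2 unit at a level of its own. Only in the panels of Fgf11, Fgfr2 and Fgfr3 are the groups apart, and vehicle 15 is an extreme point in 6 of the 10 panels.

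The promoters of the 3 genes whose groups did not overlap are printed because transcription starts there. The windows run from 250 bases before to 50 bases after an annotated start (RefSeq, build GRCm38.p6), 5′ to 3′ on the strand of the gene, with each CG dinucleotide in capitals. Fgf11 lies on the minus strand of chromosome 11 (chr11:69802231-69802530), Fgfr2 on the minus strand of chromosome 7 (chr7:130266759-130267058) and the more upstream of the Fgfr3 windows on the plus strand of chromosome 5 (chr5:33721474-33721773).
Fgf11: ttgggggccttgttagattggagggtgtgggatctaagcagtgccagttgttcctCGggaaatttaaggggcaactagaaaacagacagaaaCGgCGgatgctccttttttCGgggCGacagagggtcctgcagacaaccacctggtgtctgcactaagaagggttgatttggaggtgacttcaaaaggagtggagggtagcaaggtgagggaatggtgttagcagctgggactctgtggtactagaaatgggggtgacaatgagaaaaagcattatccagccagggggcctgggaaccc
Fgfr2: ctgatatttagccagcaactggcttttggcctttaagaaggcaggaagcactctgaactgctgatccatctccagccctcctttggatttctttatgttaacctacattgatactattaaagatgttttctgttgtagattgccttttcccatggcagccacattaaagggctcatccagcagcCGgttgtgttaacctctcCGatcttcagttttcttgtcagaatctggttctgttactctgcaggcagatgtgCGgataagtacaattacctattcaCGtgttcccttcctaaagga
Fgfr3: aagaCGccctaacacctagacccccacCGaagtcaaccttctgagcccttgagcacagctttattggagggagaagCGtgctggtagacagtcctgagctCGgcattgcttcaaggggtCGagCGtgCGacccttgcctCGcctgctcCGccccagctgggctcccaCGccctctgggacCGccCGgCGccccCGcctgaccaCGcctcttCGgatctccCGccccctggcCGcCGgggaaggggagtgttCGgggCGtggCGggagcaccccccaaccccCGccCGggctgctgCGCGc

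The Fgf11 window held 5 CG dinucleotides and the Fgfr2 window 4, where the median over all 32851 windows of the table was 7. The Fgfr3 window printed held 26, more than 83.1% of all windows, and the other Fgfr3 window (chr5:33722056-33722355) held 30. The GC box GGGCGG, counted on both strands with overlaps allowed, occurred 4 times in the first Fgfr3 window and 2 times in the second, and 0 times in those of Fgf11 and Fgfr2. It occurred in 35.7% of all windows. TATAAA, counted likewise, occurred in none of these 4 windows and in 13.6% of all. Windows were used for 8 of the 10 genes, 15 in all. For the FGF genes, any window on the chromosome of Fgf1 was left out, but not among the 32851. The CG counts of the 15 ranged from 3 in a window of Fgf13 to 40 in another of the same gene. A match is a description of letters only, and these arrays do not say which start was used in the hippocampus.

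Among the secreted ligands no group difference was larger than the spread between mice. Fgf1, acidic FGF, which leaves the cell without a signal peptide, had values of 8.15, 8.26, 8.20 and 8.17 in FTY720 1, 4, 5 and 6, against 7.98, 8.28, 8.63 and 8.18 in vehicle 13, 14, 15 and 16. The FTY720 mice lay within a narrow band, with vehicle 13 below it and vehicle 15 the highest of the 8. The difference was -0.07 (SE 0.12), with SDs of 0.05 in FTY720 and 0.27 in vehicle mice. Without vehicle 15 it was 0.05, on the other side of 0. The second Fgf1 probe set, with a mean level of 7.10, differed by -0.002 (SE 0.07).

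Fgf2, basic FGF, a mitogen of neural progenitors, was near the bottom of the range, with a mean of 3.38 that 5.30% of probe sets did not exceed. Its values were 3.52, 3.14, 3.68 and 3.29 in FTY720 1, 4, 5 and 6, and 3.32, 3.28, 3.43 and 3.41 in vehicle 13 to 16. The vehicle mice lay inside the range of the FTY720 mice, and the difference was 0.05 (SE 0.11). Fgf9, a ligand made by neurons that acts on glia, had 7.15, 7.46, 7.32 and 7.29 in FTY720 1, 4, 5 and 6, and 7.34, 7.48, 7.31 and 7.06 in vehicle 13 to 16. The lowest and the highest mouse were both in the vehicle group, and the difference was 0.01 (SE 0.09).

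The homologous factors did not share a direction. Fgf11 had 7.46, 7.57, 7.63 and 7.69 in FTY720 1, 4, 5 and 6, against 7.27, 7.27, 7.02 and 7.40 in vehicle 13, 14, 15 and 16. All 4 FTY720 mice were above all 4 vehicle mice, but the gap between FTY720 1 and vehicle 16 was only 0.06. Group means were 7.59 ± 0.10 in FTY720 and 7.24 ± 0.16 in vehicle mice (SD, n = 4 each). Vehicle 15 was the lowest mouse, and without it the difference was 0.27. Over the 17 alternative settings it ranged from 0.27 to 0.40.

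The second Fgf11 probe set was dimmer and did not show this pattern. It had 5.07, 4.84, 4.71 and 5.10 in FTY720 1, 4, 5 and 6, and 5.10, 4.91, 4.92 and 4.91 in vehicle 13 to 16. Here FTY720 5 was the lowest mouse, whereas for the brighter probe set only FTY720 6 was above it. The difference was -0.03 (SE 0.09).

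Fgf13, which binds microtubules as well as sodium channels, had 11.24, 11.34, 11.32 and 11.44 in FTY720 1, 4, 5 and 6, against 11.31, 11.35, 10.98 and 11.12 in vehicle 13, 14, 15 and 16. Vehicle 15 and 16 were the lowest mice and vehicle 13 and 14 lay among the FTY720 mice. The second probe set (mean level 5.97) also had vehicle 15 and 16 lowest, with 6.05, 6.13, 6.31 and 6.05 in FTY720 1, 4, 5 and 6, and 6.12, 6.09, 5.33 and 5.70 in vehicle 13, 14, 15 and 16. The differences were 0.14 (SE 0.09) and 0.33 (SE 0.16) for the brighter and the dimmer probe set. Without vehicle 15 and 16, the arrays that stood apart, they were 0.003 and 0.04.

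Fgf12, which binds cardiac and neuronal sodium channels, varied least of the 10 genes on the brightest probe sets, with a range of 7.58 to 7.67 in FTY720 mice and of 7.55 to 7.62 in vehicle mice. Its difference was 0.03 (SE 0.05). Fgf14, mutated in a hereditary cerebellar ataxia of humans, had 7.43, 7.39, 7.59 and 7.55 in FTY720 1, 4, 5 and 6, and 7.44, 7.27, 7.81 and 7.45 in vehicle 13, 14, 15 and 16. Vehicle 15 was the highest mouse and vehicle 14 the lowest, with the FTY720 mice between them. The difference was -0.004 (SE 0.10), or 0.10 without vehicle 15. Its second probe set (mean level 5.32) differed by -0.06 (SE 0.07).

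The receptors differed in direction among themselves. Fgfr2 had 8.67, 8.58, 8.59 and 8.45 in FTY720 1, 4, 5 and 6, against 8.76, 8.90, 8.88 and 8.87 in vehicle 13, 14, 15 and 16. All FTY720 mice were below all vehicle mice, with a gap of 0.10 between FTY720 1 and vehicle 13. Group means were 8.57 ± 0.09 in FTY720 and 8.85 ± 0.06 in vehicle mice (SD, n = 4 each). The difference was between -0.31 and -0.24 in all 16 alternative settings that kept the probe set, and -0.26 without vehicle 15 and 16. The ID of this probe set ends in _s_at, which marks probes that can also match transcripts of another gene.

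The second Fgfr2 probe set, at a mean level of 5.38, had 5.44, 5.41, 5.30 and 5.43 in FTY720 1, 4, 5 and 6, and 5.16, 5.38, 5.48 and 5.44 in vehicle 13 to 16. Values of the groups were interleaved, and the difference was 0.03 (SE 0.08). The difference between the groups in Fgfr2 thus rests on 1 probe set.

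Fgfr3 had 9.99, 10.04, 9.98 and 10.08 in FTY720 1, 4, 5 and 6, against 9.96, 9.87, 9.75 and 9.94 in vehicle 13, 14, 15 and 16. The groups were apart by only 0.01, between FTY720 5 and vehicle 13. The difference of 0.14 (SE 0.06) was 0.10 without vehicle 15. Its second probe set (mean level 5.72) lay on the same side, at 0.18 (SE 0.09), with overlapping groups, and at 0.04 without vehicle 15 and 16.

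Fgfr1 had 8.30, 8.46, 8.47 and 8.51 in FTY720 1, 4, 5 and 6, and 8.48, 8.38, 8.11 and 8.31 in vehicle 13, 14, 15 and 16. Vehicle 15 was the lowest, and the other vehicle mice lay within the range of the FTY720 mice. The difference was 0.11 (SE 0.08), or 0.01 without vehicle 15 and 16. The second probe set (mean level 4.47) gave 0.17 (SE 0.15), and -0.06 without those mice.

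**Figure D2:**
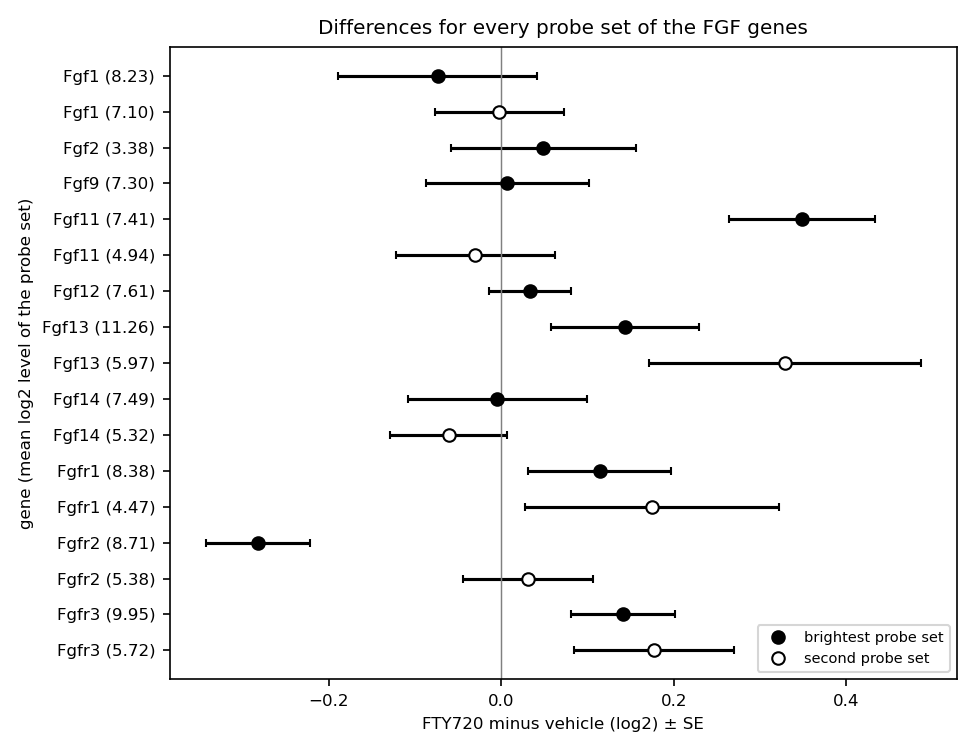
Difference FTY720 minus vehicle (log2, point) with its SE (bar) for all 17 probe sets, filled for the brightest probe set of a gene and open for the second, with the mean log2 level in brackets. The brightest probe sets of Fgf11 (0.35) and Fgfr2 (-0.28) lie farthest from 0 among the filled points, and their second probe sets lie near 0.

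Of the 7 genes with 2 probe sets, both probe sets lay on the same side of 0 in 5 and on opposite sides in 2, Fgf11 and Fgfr2. The second probe set is by definition the dimmer one, and 10 of the 17 probe sets had a mean above the median of all. Counting every probe set, 11 differences were above 0 and 6 below.

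Mouse to mouse variation was unevenly spread over the 8 arrays. Vehicle 15 held the highest or the lowest value of the 8 mice in 8 of 17 probe sets (47.1%), among them the lowest of Fgf11, Fgf13, Fgfr1 and Fgfr3 and the highest of Fgf1 and Fgf14. Over all 22626 probe sets it did so in 38.7%. FTY720 1 held an extreme value in 0 of the 17, against 19.9% of all probe sets. The SD was larger in vehicle than in FTY720 mice in 11 of the 17 (64.7%), and in 61.2% of all probe sets.

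**Figure D3:**
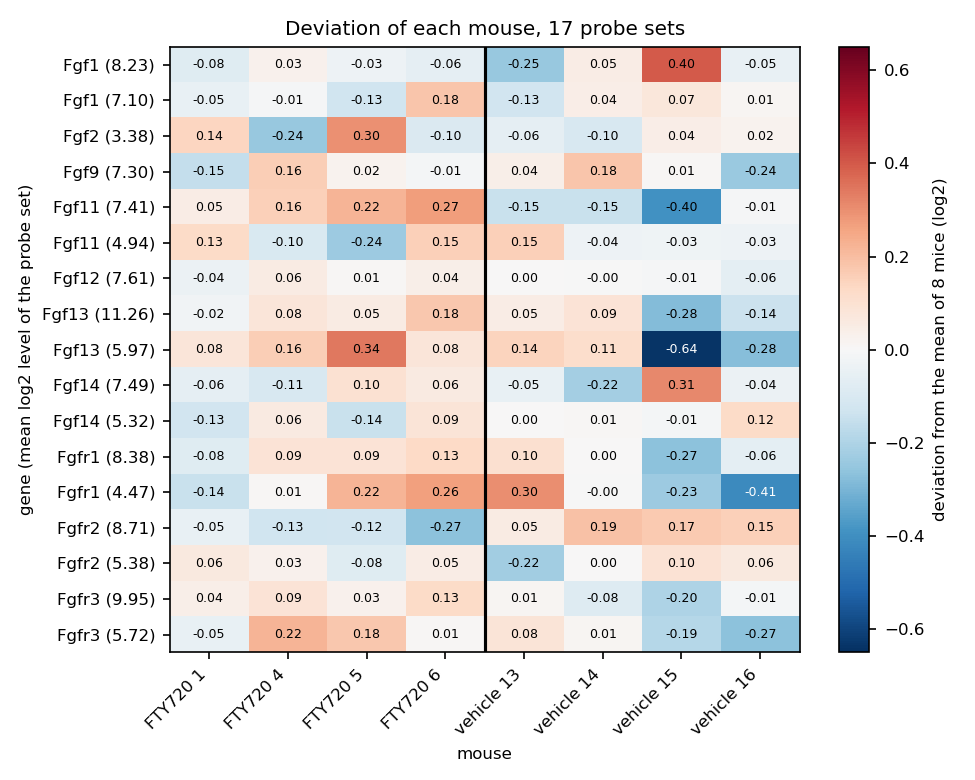
Deviation of each mouse from the mean of the 8 mice (log2, colour and printed value) for the 17 probe sets, FTY720 mice left of the line and vehicle mice right of it. The column of vehicle 15 ranges from -0.64 for the dimmer Fgf13 probe set to 0.40 for Fgf1.

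Markers of thalamus and striatum were also highest in vehicle 15. The mean of 8 thalamus markers, relative to all 8 mice, ranged from -0.54 to -0.25 over the FTY720 mice and from -0.36 to 1.39 over the vehicle mice, with 1.39 in vehicle 15. All 8 were lower in FTY720 mice, with a median difference of -0.77, or -0.37 without vehicle 15. For 8 striatum markers the range was -0.34 to -0.20 in FTY720 mice and -0.31 to 1.38 in vehicle mice, again with the maximum in vehicle 15. Of 8 neocortex markers the mean was highest in vehicle 16, at 0.52, where the FTY720 mice ranged from -0.16 to -0.005 and the other vehicle mice from -0.21 in vehicle 15 to 0.04. The part of these lists in the values of Fgf1, Fgf11, Fgf13, Fgf14, Fgfr1, Fgfr2 and Fgfr3 was not tested.

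Markers of mature oligodendrocytes, a cell type that expresses Fgfr2, moved in the same direction as Fgfr2. All 11 measured were lower in FTY720 mice, 10 at an unadjusted p under 0.05 and 0 at an adjusted p under 0.05 (limma, lowest adjusted p = 0.592). Of all genes, 6.26% passed the unadjusted threshold and 2.7% passed it as lower. The marker lists were chosen with earlier results of these data known, so nothing is read from such counts. The median difference of the 11 was -0.33, where the median over all genes was 0.01. The mean level of the 11 was 9.36 to 9.57 in the FTY720 mice, below the 9.59 to 10.03 of the vehicle mice, and 10 of the 11 were above the median level of all probe sets. Ugt8a, an enzyme of myelin lipid synthesis, stood at -0.52 (SE 0.10), Mog, a myelin surface protein, at -0.54 (SE 0.12), and Mbp, the myelin basic protein, at -0.16 (SE 0.06). Among FTY720 mice, FTY720 6 was the lowest for both Fgfr2 and the list, but the highest was FTY720 1 for Fgfr2 and FTY720 5 for the list. Among vehicle mice vehicle 13 was the lowest for both, and the highest was vehicle 14 for Fgfr2 and vehicle 16 for the list. In bulk tissue, fewer cells of a type and less RNA per cell cannot be told apart. All 8 thalamus markers were lower in FTY720 mice too, 5 at an unadjusted and 0 at an adjusted p under 0.05 (limma). So were all 8 striatum markers, with a median difference of -0.42, or -0.15 without vehicle 15, and all 7 choroid plexus markers. The part of any of these lists in the Fgfr2 difference was not tested.

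Astrocyte markers, from the cell type known for Fgfr3, did not move as a group. Of 13 measured, 4 were higher and 9 lower in FTY720 mice, with a median difference of -0.05 and 2 at an unadjusted p under 0.05, the water channel gene Aqp4 at -0.23 (SE 0.07) and Acsl6 at -0.16 (SE 0.06). Aqp4 was lower in every FTY720 mouse, on the other side of 0 from Fgfr3. The 9 lower markers lay on the side of Fgfr2, also typical of astrocytes, and their part in its difference was not tested. On the side of Fgfr3 were the connexin gene Gjb6 at 0.19 (SE 0.08) and the glutamate transporter gene Slc1a2 at 0.19 (SE 0.09), both with overlapping groups. The mean level of the 13 was 9.45 to 9.56 in the FTY720 mice, overlapping the 9.46 to 9.57 of the vehicle mice. The 4 measured markers of oligodendrocyte precursors had a median difference of 0.05, or 0.03 without vehicle 15, and 9 pan-neuronal markers one of 0.04. Without vehicle 15 the pan-neuronal median was 0.01 and without vehicle 16 it was -0.002, and the astrocyte median was -0.01 without vehicle 16.

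**Figure D4:**
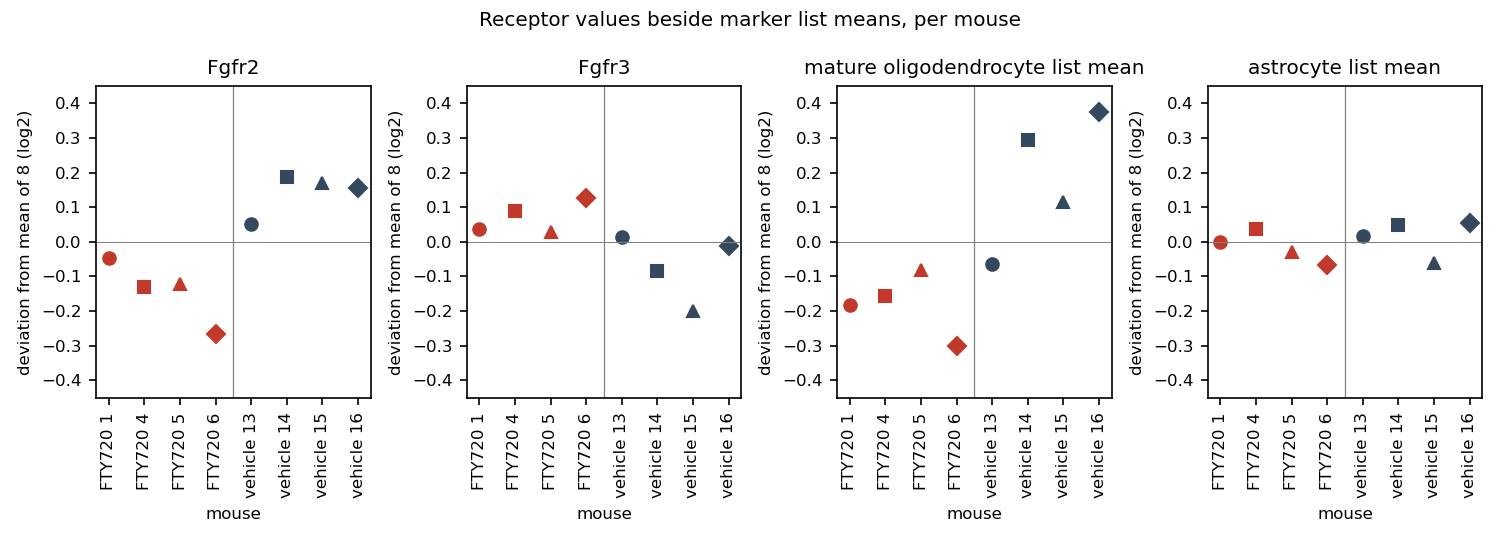
Deviation of each mouse from the mean of 8 (log2) for the brightest probe sets of Fgfr2 and Fgfr3 and for the means of 11 mature oligodendrocyte and 13 astrocyte markers, FTY720 mice left of the line and vehicle mice right of it. Fgfr2 and the oligodendrocyte mean are lower in all FTY720 mice than in any vehicle mouse, Fgfr3 is higher, and the astrocyte means overlap.

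Other genes of the pathway were counted on the brightest probe set of each gene. Of 114 genes listed in 6 groups, 90 had a probe set of their own. By limma none passed an adjusted p of 0.05 over all probe sets (lowest adjusted p = 0.593), and 4 were at an unadjusted p under 0.05, 3 higher and 1 lower in FTY720 mice. That is 4.44% of the 90, against 6.26% of all 12393 genes, where 3.57% were higher and 2.7% lower. The median difference was 0.01 over the 90 and 0.01 over all genes.

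The 15 other FGF ligands were all below the median level of all probe sets, with 8 differences above 0 and 7 below and 0 at an unadjusted p under 0.05. Fgf10, a mesenchymal ligand of the Fgfr2 splice form found in epithelia, stood at 0.26 (SE 0.13), or 0.15 without vehicle 16, Fgf4 at 0.09 (SE 0.07) and Fgf7 at 0.07 (SE 0.06). Among 8 other receptors and co-receptors none had an unadjusted p under 0.05. Fgfrl1, a receptor without a kinase domain, stood at -0.08 (SE 0.07), and the cell adhesion molecules Ncam1 and L1cam at 0.07 (SE 0.07) and 0.08 (SE 0.09). Without vehicle 16 the Ncam1 difference was 0.01 and that of L1cam 0.03. Without vehicle 15 they were 0.08 and 0.16. Of the 6 Ncam1 probe sets 4 lay above 0, and the mean of all of them differed by 0.004.

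Of 23 heparan sulfate proteoglycans and enzymes, 14 lay above 0 and 9 below. Ndst3, a sulfotransferase that modifies heparan sulfate chains, had 5.27, 5.79, 5.54 and 5.42 in FTY720 1, 4, 5 and 6, against 5.00, 5.25, 4.98 and 4.97 in vehicle 13, 14, 15 and 16. The groups did not overlap, at a level below the median of all probe sets, and the difference was 0.46 (SE 0.11, limma adjusted p = 0.593). Gpc4, a glypican carried by astrocytes, differed by 0.31 (SE 0.11, limma adjusted p = 0.699), with vehicle 15 and 16 lowest, and by 0.09 without those mice. Sulf2, which removes sulfate groups from the chains, stood at 0.19 (SE 0.09).

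In the signal transduction group 11 of 23 genes lay above 0 and 12 below. Gab1, a docking protein that couples receptors to phosphoinositide 3-kinase, had 8.49, 8.39, 8.49 and 8.16 in FTY720 1, 4, 5 and 6, against 8.49, 8.72, 8.67 and 8.69 in vehicle 13, 14, 15 and 16. Vehicle 13 lay among the FTY720 mice, and the difference was -0.26 (SE 0.08, limma adjusted p = 0.690). All 3 Gab1 probe sets had this sign. The adaptors Crkl and Grb2 stood at 0.12 (SE 0.07) and 0.09 (SE 0.05). Without vehicle 15 and 16, the lowest mice for both genes, they stood at 0.03 and 0.04.

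Genes induced by FGF signalling or acting as its feedback inhibitors gave 5 values above 0 and 6 below. Etv5, a transcription factor induced by FGF, differed by 0.25 (SE 0.11, limma adjusted p = 0.722), or 0.14 without vehicle 15, the mouse with its lowest value. The cell cycle gene Ccnd1 stood at 0.15 (SE 0.09), or 0.04 without vehicle 15 and 16. Etv4 stood at 0.09 (SE 0.06), or 0.12 without those mice. The inhibitors Spry1, Spry2 and Spry4 stood at -0.03 (SE 0.08), -0.07 (SE 0.10) and -0.03 (SE 0.09), and the MAP kinase phosphatase Dusp6 at -0.08 (SE 0.13). The sign of each of these 4 turned when 1 mouse was left out, for Spry2 and Dusp6 without vehicle 16 (0.03 and 0.06).

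Sodium channel genes and other partners of the homologous factors gave 6 values above 0 and 4 below, with 0 at an unadjusted p under 0.05. Scn8a, which encodes a sodium channel of the axon initial segment, stood at 0.13 (SE 0.09), or 0.04 without vehicle 15, its lowest mouse. Scn3a, with a mean level of 3.57, stood at -0.07 (SE 0.07), or -0.03 without FTY720 5. The kinase Mapk13 stood at 0.11 (SE 0.07).

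**Figure D5:**
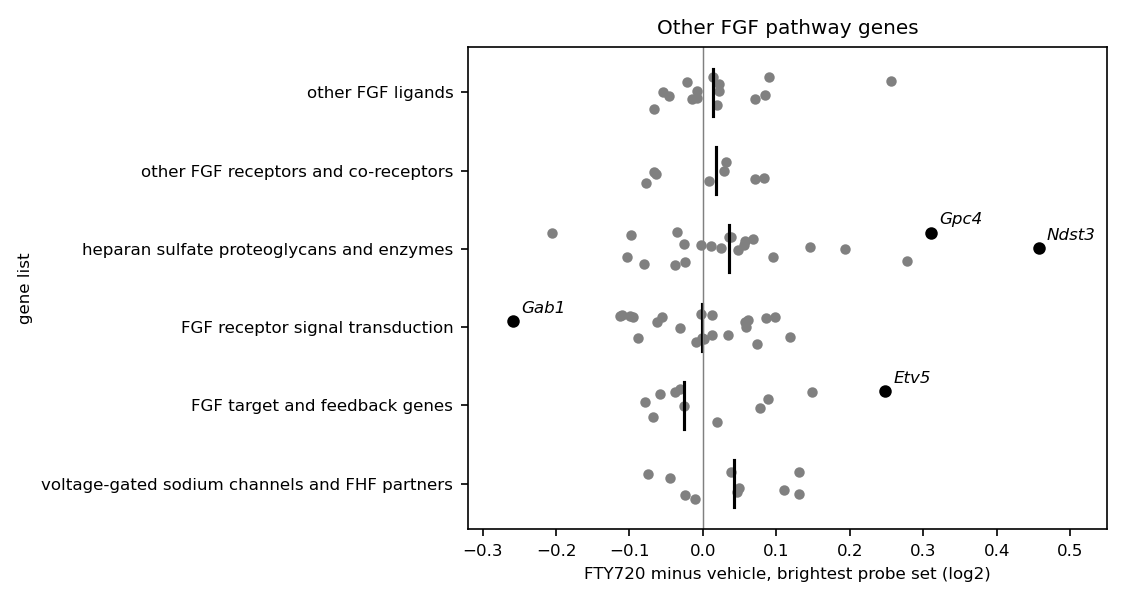
Difference FTY720 minus vehicle (log2) of each other pathway gene on its brightest probe set, by group, with a bar at the median. Black and named are the 4 genes with an unadjusted p under 0.05, of which 3 are higher and 1 is lower in FTY720 mice, and none passed an adjusted p of 0.05.

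The genes with the most similar pattern were sought by Pearson's r over the 8 mice after the mean of its own group was taken from each value, among 6980 genes above the median level. For Fgf11 they were Rtn4r (0.956), Khdrbs3 (0.949) and Erdr1 (0.947), and for Fgfr2 Ccdc59 (0.961), Qtrt1 (0.960) and Tmem87a (0.955). Fgfr3 was most like Ccdc117 (0.974), Atp6v1g2 (0.960) and Edrf1 (0.959), and Fgfr1 most like Tsnax (0.992), Nptx1 (0.984) and Wasf1 (0.983). The closest to Fgf13 were Trim3 (0.995), Pfkl (0.978) and Epn1 (0.976), and to Fgf14 Cct4 (0.997), Ppp1r8 (0.991) and Hspa4 (0.984). Fgf1 had Ampd3 (0.981), Enpp5 (0.969) and Afg3l1 (0.967), and Fgf12 had Msi2 (0.952), Mpp6 (0.948) and Fto (0.941). Fgf9 had Slc25a51 (0.974), Etf1 (0.973) and Sec13 (0.971), and Fgf2, dim as it was, Mtdh (0.966), Phf5a (0.952) and Tia1 (0.949). With 8 mice most such values are common, since the median gene had an r of 0.980 with its closest partner. The 5th and 95th percentiles of that r were 0.949 and 0.995. Fgf14 with Cct4 (0.997) was above the 95th percentile, and Fgf13 with Trim3 (0.995) equalled it as rounded. The deviations of Fgf13, Fgf14 and Fgfr1 were largest in vehicle 15, and the part of that array in these r values was not tested.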

How the data were processed

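Hippocampal RNA of 8 mice (100 ng each, per the labels) was measured on Affymetrix 3' arrays. The authors deposited 1 log2 value per probe set and mouse; the log2 scale was inferred from the range. The submitters' processing notes list MAS5, RMA and Expression Console (Affymetrix) with neither version nor role, so the summary method behind the values is unknown.

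Of 22690 probe sets, 64 controls were left out. In the rest, 20380 had 1 gene symbol in the platform annotation, 691 several and 1555 none. Current symbols came from the RefSeq gene table by Entrez ID.

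FTY720 was compared with vehicle over all 22626 probe sets with limma 3.58.1 in R 4.3.3 (lmFit, eBayes, no covariate, two-sided, Benjamini-Hochberg adjustment). The fit was tested on simulated data. The labels give no batch and no shared replicate numbers. The number of arrays limits the precision. SDs are between mice.

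Members, gene lists and tests were chosen with earlier results of these data known. Named were all 17 member probe sets, the 3 genes of smallest unadjusted p in each of 6 pathway groups, and the 3 genes most similar to each member. Spry1, Spry2, Spry4, Dusp6 and the marker genes named were chosen after their values were seen. Alternatives covered normalization, filters, variance models and leaving out each mouse, and 1 chosen after seeing the data left out vehicle 15 and 16.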

Additional observations from a re-analysis of the deposited data

Results flagged for a closer look

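A single mouse stood far from the other 3 of its group in 5 of 110 groups examined (4.55%), where chance alone marks about 1 in 20. All 5 were vehicle mice. The second Fgf11 probe set was 5.10 in vehicle 13 and between 4.91 and 4.92 in the other vehicle mice. The second Fgf14 probe set was 5.44 in vehicle 16 and between 5.31 and 5.33 in the others. Ncam1 was 10.63 in vehicle 16 against 10.84 to 10.88 in the others. Ndst3 was 5.25 in vehicle 14 against 4.97 to 5.00 in the others. Scn8a was 10.36 in vehicle 15 against 10.71 to 10.75 in the others.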

How the results depend on the processing

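No probe set passed an adjusted p of 0.05 in any alternative, where the lowest adjusted p was 0.127. The number at an unadjusted p under 0.05, 1529 of 22626, was 1266 to 1838 when 1 mouse was left out. It was 969 of 11313 above the median level, a larger share of fewer probe sets, and 823 of 12393 with 1 probe set per gene. The 823 came from a fit to those probe sets alone, where the fit to all probe sets gave 776 of the 12393 (6.26%). Of the pathway genes, 4 had an unadjusted p under 0.05, with 2 to 6 when 1 mouse was left out (2 without FTY720 5), and 8 when all probe sets of a gene were averaged. For these last changes the cause was not tested. Of 277 recomputed differences of the FGF probe sets, 2 moved by 1 SD between mice or more, both of Fgf13 without vehicle 15 and 16 (0.003 and 0.04). Leaving out 1 mouse turned the sign, for at least 1 choice of mouse, of both Fgf1 probe sets, Fgf2, Fgf9, the brighter Fgf14 and the dimmer Fgf11 and Fgfr2 probe sets. Without probe sets ending in _s_at or _x_at, the brighter probe sets of Fgfr1 and Fgfr2 are lost. Of 107 recomputed medians of the pathway groups, 5 moved by 1 SD or more. No paired analysis was possible because the groups share no replicate numbers.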

Other observations

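Marker lists of further cell types were measured beside the FGF genes, on the brightest probe set of each gene. Of 9 interneuron markers 5 were higher and 4 lower in FTY720 mice, with a median difference of 0.16. The 3 of them at an unadjusted p under 0.05 were Reln at 0.33 (SE 0.14), Lhx6 at 0.23 (SE 0.06) and Sst at 0.23 (SE 0.08), where 6.26% of all genes passed that threshold. Npy at -0.23 (SE 0.11) and Slc32a1 at -0.12 (SE 0.20) lay on the other side. This list too was chosen with earlier results known, and nothing is read from the count of 3. The median was between 0.08 and 0.23 when 1 mouse was left out, lowest without FTY720 4. Markers of CA1 pyramidal cells (3 measured, median 0.19), CA3 and CA2 pyramidal cells (7, -0.19), dentate granule cells (5, -0.07), microglia (9, -0.004) and endothelial cells (8, -0.05) lay on both sides of 0 within each list. When 1 mouse was left out, the median ranged from 0.09 (without vehicle 16) to 0.24 for CA1, and from -0.28 to -0.08 (without vehicle 15) for CA3 and CA2. For dentate granule cells it ranged from -0.15 (without vehicle 15) to 0.08 (without FTY720 6), for microglia from -0.11 (without vehicle 15) to 0.02 (without vehicle 14), and for endothelial cells from -0.09 (without vehicle 15) to 0.03 (without vehicle 14). All 7 choroid plexus markers were lower in FTY720 mice, with a median of -0.61 and 0 at an unadjusted p under 0.05, but the median was -0.07 without vehicle 15. Their mean, relative to the 8 mice, ranged from -1.44 to 0.98 over the FTY720 mice and from -0.91 to 1.53 over the vehicle mice. None of these lists held a gene at an adjusted p under 0.05 by limma.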
